A study of Saccharomyces cerevisiae with 4 samples.

Results

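The 40 genes described here are nuclear genes of Saccharomyces cerevisiae for oxidative phosphorylation. They were chosen by systematic name and not by a measured value, though earlier results of these data were known. They are 14 genes of ATP synthase, 10 of cytochrome c oxidase, 9 of the bc1 complex, 4 of succinate dehydrogenase, and NDI1, CYC1 and INH1. Of these, 36 have a row among the 4777 genes of the count table. RIP1, SDH1, SDH4 and NDI1 have none and were not analysed here.

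The data are 4 yeastDrop-Seq libraries, 1 for each growth condition, of cells grown for 18 h in minimal medium with glucose. All came from BY4741, a haploid MATa laboratory strain that lacks HIS3, LEU2, MET15 and URA3 function. The MPA medium held 10 µM mycophenolic acid and DMSO, the MPA + Guanine medium held both compounds and DMSO, the Guanine medium held 10 µM guanine and, as the Methods describe it, no DMSO, and the DMSO medium held 10 µM DMSO alone. MPA inhibits IMP dehydrogenase and so the synthesis of GMP, which added guanine can supply by another route. The libraries held 102788 UMIs in 85 cells for MPA, 279806 in 268 cells for MPA + Guanine, 216768 in 258 cells for Guanine and 311199 in 233 cells for DMSO. A Unique Molecular Identifier (UMI) marks 1 captured mRNA molecule. No barcode was shared between libraries (0 of 844). With 1 library per condition there was no test between conditions, and a condition cannot be told apart from its library.

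In oxidative phosphorylation, electrons from NADH and succinate pass through the inner mitochondrial membrane to oxygen, and the proton gradient built on the way drives ATP synthase. In this yeast NADH inside the mitochondria enters through the single-subunit enzyme Ndi1, which pumps no protons, and succinate enters through succinate dehydrogenase. The bc1 complex hands the electrons to cytochrome c, and cytochrome c oxidase passes them to oxygen. Yeast growing on glucose ferments and keeps many of these genes low, and the Hap2/3/4/5 complex, which binds CCAAT boxes, is known to raise them when cells respire. The core catalytic subunits of the oxidase, cytochrome b and several subunits of the membrane part of ATP synthase are made from the mitochondrial genome. The genes on a list of 7 such loci have no row (0 of 7), so the values below are of the nuclear genes.

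For each gene, the UMIs of all cells of a library were added up and scaled to a library total of 1000000 (CPM). CPM values come from captured mRNA ends and are not scaled by gene length, so they are compared between libraries and not between genes. Intervals are exact at the 95% level (Poisson for a level, conditional binomial for a ratio) and cover counting error only. Without exception (0 genes), a gene with any UMI in a library reached 2 UMIs in at least 1 of its cells, as a filter on genes applied within each library would leave it. A gene listed at 0 need therefore not have been absent.

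Such zeros were common among the 36 genes in the smallest library. In MPA 14 were listed at 0: ATP3, ATP16, COX4, COX5B, COX7, COX8, COX12, COX26, QCR2, QCR8, QCR9, QCR10, SDH2 and INH1. In MPA + Guanine 4 were listed at 0, namely COX8, COX26, QCR10 and SDH2. In Guanine there were 2, COX4 and CYT1, and in DMSO 5, COX5A, COX12, COX26, CYT1 and SDH2. In other words 38.9% of the 36 genes were at 0 in MPA, 11.1% in MPA + Guanine, 5.56% in Guanine and 13.9% in DMSO, against 49.3%, 18.3%, 38.9% and 26.7% of all genes of the table in the same order of libraries. Many genes of the table have few UMIs. Among genes that reached 50 UMIs in total, 10 of 31 oxidative phosphorylation genes were at 0 in MPA (32.3%, against 22.3% of 2455 genes), so the comparison with other genes turns round there. In MPA + Guanine the number was 1 (3.23%, against 1.71%), in Guanine 0 (against 11.5%) and in DMSO 2 (6.45%, against 2.53%). Numbers of 1 and 2 genes are too few to read a direction from. At their DMSO levels, the 11 genes at 0 in MPA that had UMIs in DMSO would have given 4.95 to 15.5 UMIs each in the MPA library, and 0.365 to 2.19 cells with 2 or more UMIs. The 20 genes with UMIs in all 4 libraries are therefore given separately wherever a sum is compared. They are 12 ATP synthase genes, COX6, COX9, COX13, COR1, QCR6, QCR7, SDH3 and CYC1.

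The stretches before the start codons carry a feature that the choice of genes did not use. Windows of 300 bases, 250 before and 50 from the start codon, were read from the R64 genome of RefSeq and searched on both strands. CCAAT was found in 35 of the 40 windows (87.5%), against 43.3% of the windows of 6001 protein-coding nuclear genes. The longer motif ACCAATNA, which contains the first and is the form Hap2/3/4/5 is known to bind, was found in 16 of 40 (40%), against 5.75% of all windows. It was in 8 of the 14 ATP synthase windows, 5 of 10 of cytochrome c oxidase, 2 of 9 of the bc1 complex and 0 of 4 of succinate dehydrogenase, and in that of NDI1. Of its 16 matches, 13 read along the gene and 3 on the other strand, and 11 began 170 to 230 bases before the start codon. A match is a description of the letters and not a binding site.

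The following matches, in 60 bases each and with the motif in capitals, are from genes whose levels are given below and are shown so that the motif's flanks can be compared. Each is written 5′ to 3′ along the gene.
ATP4 (chrXVI:408901-408960, minus strand): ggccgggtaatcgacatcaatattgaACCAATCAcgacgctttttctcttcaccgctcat
ATP7 (chrXI:408134-408193, minus strand): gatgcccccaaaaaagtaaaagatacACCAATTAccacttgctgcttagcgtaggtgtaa
ATP14 (chrXII:722538-722597, minus strand): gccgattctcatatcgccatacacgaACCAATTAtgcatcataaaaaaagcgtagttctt
COX13 (chrVII:144569-144628, plus strand): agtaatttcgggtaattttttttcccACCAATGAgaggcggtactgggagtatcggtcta
QCR7 (chrIV:1496697-1496756, minus strand): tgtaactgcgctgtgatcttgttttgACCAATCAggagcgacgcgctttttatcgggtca
COX6 (chrVIII:209462-209521, plus strand, motif on the other strand): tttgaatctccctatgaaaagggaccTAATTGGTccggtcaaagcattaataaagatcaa
In these 6 windows the match lies 217 to 171 bases before the start codon, and it reads ACCAATCA in 8 of all 16 matches, ACCAATTA in 5 and ACCAATGA in 3.

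COX9 and ATP2, which stood highest in the Guanine library, have CCAAT but not the longer form. Their stretches, of 57 bases, show it with the other letters around it. QCR6 is the 1 gene of the 40 with a motif of the form CGG, any 3 bases, TA, any 1 base and CGG (2.5%, against 0.133% of all windows), the form known for the haem-responsive factor Hap1, and its match is in capitals.
COX9 (chrIV:334513-334569, minus strand, motif on the other strand): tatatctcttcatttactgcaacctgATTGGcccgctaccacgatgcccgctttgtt
ATP2 (chrX:647396-647452, plus strand): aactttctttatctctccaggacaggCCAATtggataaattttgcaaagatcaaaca
QCR6 (chrVI:224957-225019, minus strand): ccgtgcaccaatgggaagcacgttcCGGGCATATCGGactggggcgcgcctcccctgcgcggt
The ratios of genes with and without ACCAATNA overlapped. For Guanine over DMSO the median log2 ratio was 0.25 over 13 genes with it (-0.56 to 0.96) and 0.59 over 16 without it (-0.67 to 1.22), and for MPA over DMSO -0.25 over 10 genes with it and -0.11 over 10 without it. The order was the other way for MPA + Guanine over DMSO, 0.28 over 12 with it and 0.14 over 16 without it, and for MPA + Guanine over Guanine, 0.06 over 13 with it and -0.37 over 17 without it.

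ATP synthase has a catalytic head, in which Atp1 (alpha) and Atp2 (beta) alternate, a rotating stalk and a side stalk that holds the head. The genes for its 2 head subunits differed in how they stood across libraries. ATP2 (YJR121W) had 22 UMIs in MPA, 76 in MPA + Guanine, 123 in Guanine and 110 in DMSO, or 214, 272, 567 and 353 CPM. Its level in Guanine, with an interval of 472 to 677 CPM, lay above those of the other 3 libraries, and MPA was lowest. ATP1 (YBL099W) had 34, 106, 62 and 101 UMIs in the same order, or 331, 379, 286 and 325 CPM, with intervals that overlapped in all 4 libraries. Of the UMIs of both genes together, ATP2 held 39.3% in MPA (26.5% to 53.2%), 41.8% in MPA + Guanine (34.5% to 49.3%), 66.5% in Guanine (59.2% to 73.2%) and 52.1% in DMSO (45.2% to 59.0%). The interval of Guanine did not overlap that of any other library. This pair was set side by side after the values were seen.

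ATP4 (YPL078C), for subunit b of the side stalk, was the gene of the 36 with the most UMIs over the 4 libraries (399), and its order was another: 350 CPM in MPA, 507 in MPA + Guanine, 328 in Guanine and 482 in DMSO. Both libraries with a single compound were the lower ones. Their intervals, 245 to 485 CPM in MPA and 256 to 413 CPM in Guanine, both reached that of DMSO, 408 to 566 CPM. ATP14 (subunit h, also of the side stalk) had 8, 50, 32 and 28 UMIs in the same order, with 179 CPM in MPA + Guanine and 148 in Guanine, and ATP7 (subunit d) 175, 272, 185 and 186 CPM, both highest in MPA + Guanine by CPM. ATP5, the subunit that joins the side stalk to the head, stood at 136, 204, 166 and 148 CPM. For these 4 side stalk genes the MPA + Guanine library had the highest level. It was also highest for 33.7% of the 1641 genes with at least 50 UMIs and UMIs in all 4 libraries. The leads of ATP4 and ATP5 over DMSO were within counting error, with log2 ratios of 0.07 (-0.27 to 0.42) and 0.46 (-0.12 to 1.06). Those of ATP7 and ATP14 had intervals above 0. Totals without ribosomal protein genes move each of these ratios by -0.28.

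The other genes of the complex encode parts of the central stalk and of the membrane part, and their order across libraries varied. ATP15 (epsilon, of the central stalk) had 16 UMIs in MPA, 77 in MPA + Guanine, 69 in Guanine and 81 in DMSO, or 156 CPM in MPA, 318 in Guanine and 260 in DMSO. ATP18 (subunit i/j) was at 389, 304, 415 and 292 CPM, and had the highest ratio of MPA over DMSO of this complex. ATP17 (subunit f) had 97.3, 107, 198 and 151 CPM, low in both libraries with MPA. ATP19 (subunit k) was the one gene of the 20 that was highest in DMSO, with 117, 154, 134 and 186 CPM. TIM11 and ATP20, the subunits e and g that help ATP synthase to dimerize, had 165, 257, 231 and 190 CPM and 117, 132, 175 and 148 CPM. ATP3 (gamma) and ATP16 (delta), at 0 in MPA, had 71.5 and 96.5 CPM in MPA + Guanine, 115 and 83.0 in Guanine and 116 and 132 in DMSO.

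Among cytochrome c oxidase genes, COX9 stood apart in the Guanine library. COX9 (YDL067C), for a small subunit of the membrane part, had 26 UMIs in MPA, 102 in MPA + Guanine, 160 in Guanine and 106 in DMSO, or 253, 365, 738 and 341 CPM. The Guanine interval of 628 to 862 CPM lay clear of the other 3, whose intervals overlapped one another. COX7 had 0, 28, 38 and 28 UMIs in the same order, and COX6 had 7, 17, 19 and 14. COX13, for a peripheral subunit, had 233, 311, 309 and 286 CPM. COX13 was thus nearly level across libraries while COX9 was not. COX8 was at 0 in MPA and in MPA + Guanine, with 111 CPM in Guanine and 93.2 in DMSO, and at the Guanine level it would have given 31.0 UMIs in MPA + Guanine and 2.08 cells with 2 or more. COX12 (YLR038C), for a subunit on the intermembrane space side, had 43 UMIs in MPA + Guanine and 42 in Guanine and 0 in MPA and DMSO. At the Guanine level the DMSO library would have held 60.3 UMIs of it and 4.52 cells with 2 or more. COX4 had 11 UMIs in MPA + Guanine and 15 in DMSO, and COX26 had 6 in Guanine, with 0 elsewhere.

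COX5A and COX5B encode alternative forms of 1 subunit, of which Cox5b is known as the form made when oxygen is low. Their coding sequences are 67.5% identical over 449 aligned bases, and no gene of the 40 has a copy of at least 90% identity over 50% of its length (0 of 40). COX5B (YIL111W) had 0 UMIs in MPA, 64 in MPA + Guanine, 22 in Guanine and 32 in DMSO. COX5A (YNL052W) had 10 in MPA, 25 in MPA + Guanine, 24 in Guanine and 0 in DMSO. COX5B was thus listed at 0 in MPA and COX5A in DMSO. At its Guanine level COX5A would have given 34.5 UMIs in DMSO and 1.81 cells with 2 or more, and at its DMSO level COX5B would have given 10.6 UMIs in MPA. In the 2 libraries with UMIs of both genes, COX5B held 71.9% of them in MPA + Guanine (61.4% to 80.9%) and 47.8% in Guanine (32.9% to 63.1%), and these intervals overlapped.

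In the bc1 complex, QCR7 (YDR529C, a small matrix-side subunit) had 204 CPM in MPA, 279 in MPA + Guanine, 268 in Guanine and 157 in DMSO, lowest in DMSO. QCR8 had 0, 207, 272 and 151 CPM in the same order, and at its DMSO level it would have given 15.5 UMIs in MPA. QCR6 (YFR033C), the acidic hinge subunit, was nearly level with 263, 307, 263 and 283 CPM. COR1, a core subunit, had 97.3, 42.9, 106 and 61.1 CPM in the order MPA, MPA + Guanine, Guanine and DMSO, while QCR2, the other core subunit, had 0, 125, 96.9 and 86.8 CPM. These core genes thus had their lowest nonzero levels in different libraries. QCR9 had 0, 125, 96.9 and 77.1 CPM. CYT1, for cytochrome c1, had 8 UMIs in MPA and 21 in MPA + Guanine and was at 0 in Guanine and DMSO, and QCR10 had 21 in Guanine and 17 in DMSO.

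Among the rest, SDH3 (YKL141W), a membrane anchor of succinate dehydrogenase, had 58.4 CPM in MPA, 139 in MPA + Guanine, 180 in Guanine and 96.4 in DMSO. SDH2, the iron-sulphur subunit, had 15 UMIs, all in Guanine. CYC1 (YJR048W), the main cytochrome c, had 126, 67.9, 157 and 86.8 CPM in the same order of libraries, lowest in MPA + Guanine. INH1 (YDL181W), which blocks the reverse reaction of ATP synthase, had 0 UMIs in MPA, 27 in MPA + Guanine, 26 in Guanine and 16 in DMSO.

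**Figure D1:**
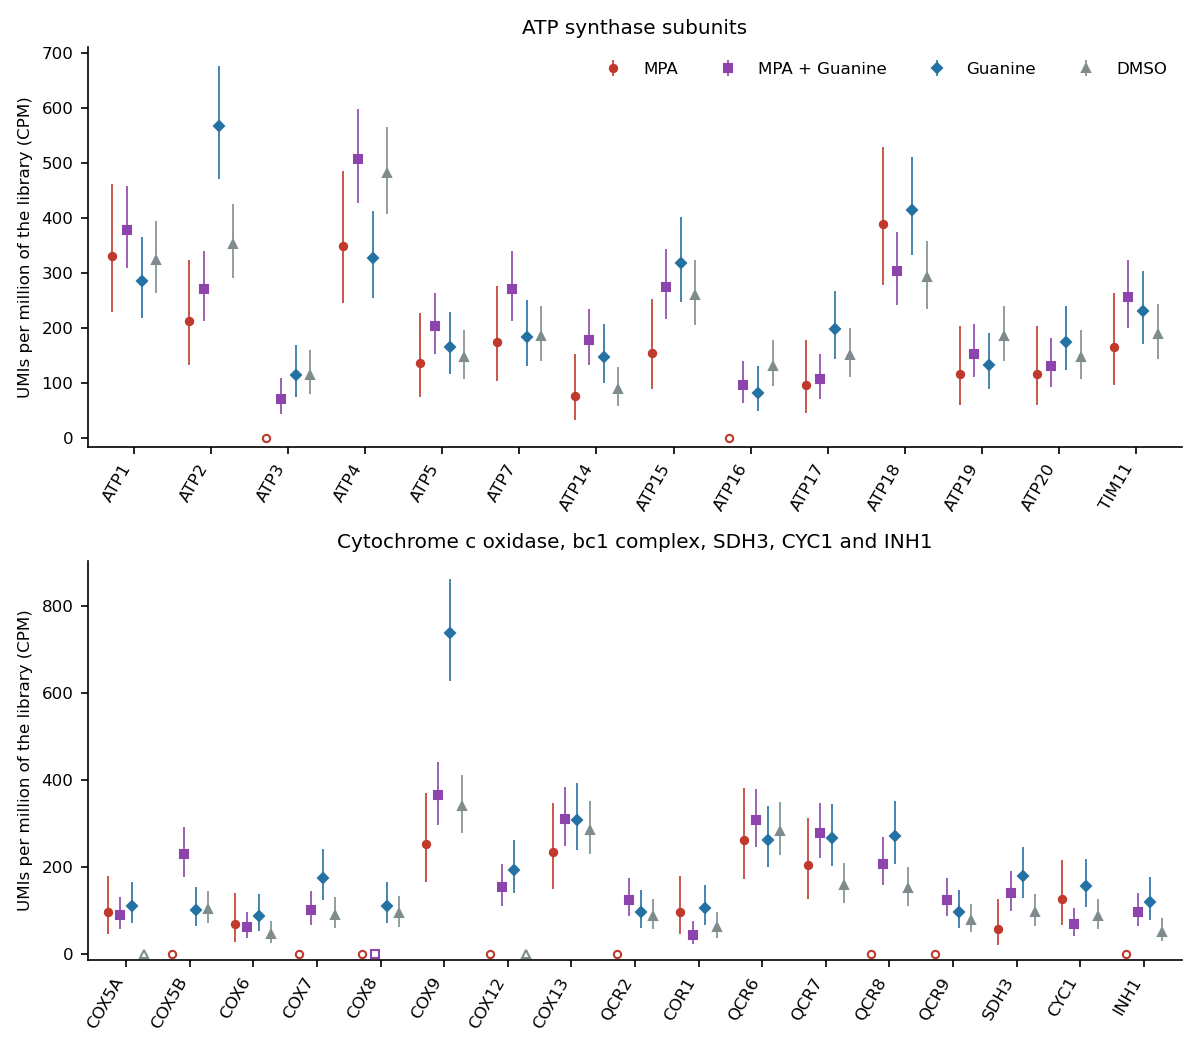
Level of each gene with at least 50 UMIs in the 4 libraries, in CPM (linear axis), with exact 95% Poisson intervals as bars; open symbols at 0 are genes listed at 0. COX9 at 738 CPM and ATP2 at 567 CPM in Guanine stand above their other libraries, and the open MPA circles show the genes at 0 there.

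Over the 20 genes with UMIs in all 4 libraries, the MPA library had the highest level of 0 and the lowest of 13. Among the 1641 genes of the table with at least 50 UMIs and UMIs in all 4 libraries, MPA was highest for 33.3% and lowest for 22.5%. Guanine was highest for 10 of the 20 and MPA + Guanine for 9, against 25.5% and 33.7% of those genes, and DMSO for 1, against 7.56%. Guanine was the lowest library for only ATP1 and ATP4 of the 20, against 36.1% of those genes, MPA + Guanine for COR1 and CYC1, against 21%, and DMSO for ATP18, COX6 and QCR7, against 20.4%.

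Summed by complex, ATP synthase genes were at 2325 CPM in MPA, 3209 in MPA + Guanine, 3349 in Guanine and 3059 in DMSO. Cytochrome c oxidase genes were at 652, 1347, 1855 and 1006 CPM, and bc1 genes at 642, 1162, 1199 and 871 CPM, in the same order. The Guanine sum of the oxidase, with an interval of 1678 to 2045 CPM, lay above those of the other 3 libraries. Over the 20 genes detected in each library, ATP synthase was at 2325, 3041, 3151 and 2812 CPM, the oxidase (3 genes) at 555, 736, 1135 and 672 CPM, and the bc1 complex (3 genes) at 564, 629, 637 and 501 CPM. The sum of the bc1 complex in MPA was then no longer below that of DMSO. This choice of genes by itself raises MPA against DMSO. It leaves out QCR2, QCR8, QCR9 and QCR10, at 0 in MPA with 27, 47, 24 and 17 UMIs in DMSO. On the other side it leaves out CYT1, with 8 UMIs in MPA and 0 in DMSO. No direction is therefore read from the bc1 sum over these genes. Fewer mRNAs of these genes per cell and more mRNA of other genes cannot be told apart in CPM.

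**Figure D2:**
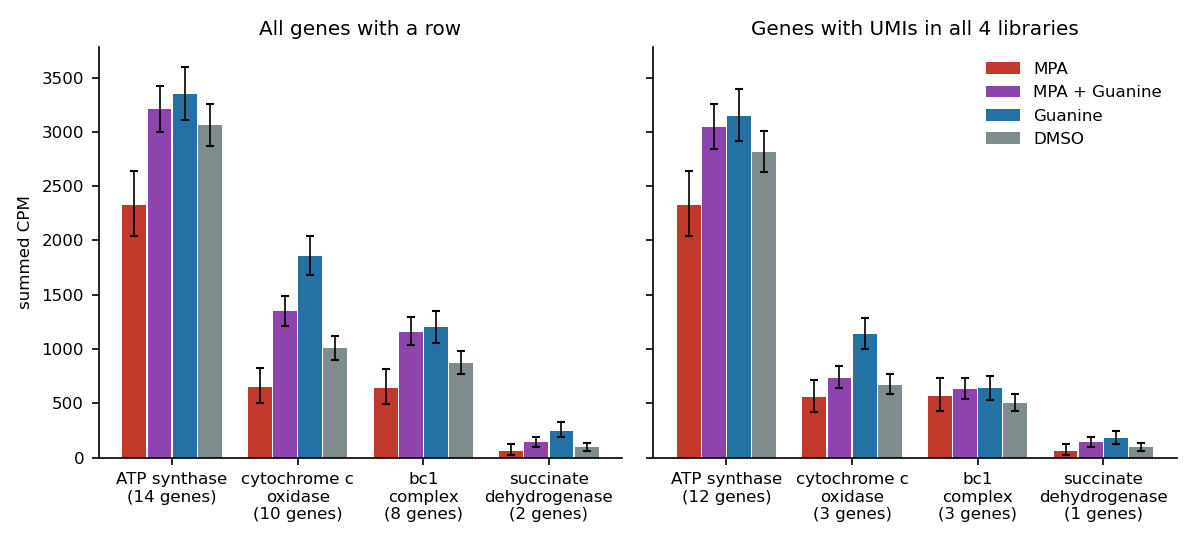
Summed level of the genes of 4 complexes in each library (CPM, bars from 0) with exact 95% Poisson intervals, over all genes with a row on the left and over genes with UMIs in all 4 libraries on the right. The MPA bar of the bc1 complex is 642 CPM on the left against 871 in DMSO, and 564 against 501 on the right. The right panel leaves out the genes at 0 in MPA, which by itself raises MPA against DMSO there.

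MPA over DMSO asks how cells under inhibited GMP synthesis differ from vehicle cells. All 36 genes together were at 3804 CPM in MPA and 5170 CPM in DMSO, a log2 ratio of -0.44 (-0.61 to -0.28). Without the genes at 0 in MPA or DMSO, the 20 left were at 3629 CPM in MPA and 4168 CPM in DMSO, a log2 ratio of -0.20 (-0.37 to -0.03); the smaller ratio without the genes listed at 0 shows how much of the first rested on them. Of the genes left out, 14 were at 0 in MPA and 5 in DMSO, some in both, so leaving them out by itself raises the ratio. Without ATP2 the other 19 of the 20 had -0.16 (-0.34 to 0.01), an interval that includes 0. Of these 20, all with at least 50 UMIs, 2 were at least 1.5-fold higher in MPA and 5 at least 1.5-fold lower, against 25.2% and 10.3% of 1866 genes. Their median log2 ratio was -0.20 and that of the 1866 genes 0.18. Relative to that median, 0 of the 20 were at least 1.5-fold higher and 7 lower, against 16.2% and 16.1%.

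The lowest ratios among genes with at least 100 UMIs were those of ATP15 at -0.74 (-1.62 to 0.04), ATP2 at -0.72 (-1.46 to -0.05) and SDH3 at -0.72 (-2.28 to 0.56). The highest of that set were ATP18 at 0.41 (-0.16 to 0.96), QCR7 at 0.38 (-0.44 to 1.14) and ATP1 at 0.03 (-0.58 to 0.60). COR1 at 0.67 (-0.60 to 1.85) and COX6 at 0.60 (-0.95 to 2.00), with fewer UMIs, were the 2 genes at least 1.5-fold higher. ATP2 was the only one of the 20 whose interval lay below 0 and 0 lay above it, against 8.52% and 18.5% of all genes, in a library of 85 cells where these 20 genes had 6 to 40 UMIs each.

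Guanine over DMSO asks what guanine does alone, and also compares a medium without DMSO with one that has it. All 36 genes were at 6929 CPM in Guanine and 5170 CPM in DMSO, a log2 ratio of 0.42 (0.32 to 0.52). For the 30 with UMIs in both libraries it was 0.35 (0.25 to 0.45). Of 29 genes counted, 11 were at least 1.5-fold higher in Guanine and 1 lower, against 19.8% and 15.7% of 2115 genes. The median was 0.29, and 0.05 over all genes. The intervals of 9 lay above 0 and that of ATP4 lay below, against 19.3% and 14.1% of all genes.

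The difference was uneven between complexes. Oxidase genes had a log2 ratio of 0.88 (0.67 to 1.10), or 0.67 (0.44 to 0.90) over the 6 with UMIs in both libraries. Without COX9 the other 5 had 0.35 (0.04 to 0.65); the sum thus rested largely on COX9. The bc1 genes had 0.46 (0.21 to 0.71) and ATP synthase genes 0.13 (-0.01 to 0.27). Without ATP2 the other 13 ATP synthase genes had 0.04 (-0.11 to 0.19).

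COX9 had the highest ratio among genes with at least 100 UMIs, 1.12 (0.75 to 1.48), followed by SDH3 at 0.90 (0.18 to 1.64) and QCR8 at 0.85 (0.27 to 1.43). The others whose intervals lay above 0 were INH1 at 1.22 (0.27 to 2.22), COX7 at 0.96, CYC1 at 0.85, QCR7 at 0.76, ATP2 at 0.68 and ATP18 at 0.51. Among them are 2 of the 14 ATP synthase genes counted, and SDH3 is the only gene for electron entry. A rise along the whole pathway can therefore not be read from them. The lowest among genes with at least 100 UMIs were ATP4 at -0.56 (-0.99 to -0.14), ATP19 at -0.48 (-1.17 to 0.19) and ATP1 at -0.18 (-0.66 to 0.29), all of ATP synthase. ATP16, with 86 UMIs, was lower at -0.67 (-1.55 to 0.17) and was the 1 gene at least 1.5-fold lower.

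MPA + Guanine over DMSO compares cells given both compounds with vehicle cells. The 36 genes were at 6022 CPM in MPA + Guanine and 5170 CPM in DMSO, a log2 ratio of 0.22 (0.12 to 0.32). Scaled by totals without ribosomal protein genes, which held 18.9% of the UMIs in MPA + Guanine and 33.2% in DMSO, it was -0.06, so no direction is read from it. Of 28 genes counted, 5 were at least 1.5-fold higher and 1 lower, against 27.5% and 10.8% of 2351 genes. The median of 0.14 was below that of all genes, 0.26. Relative to that median, 3 were higher and 6 lower, against 14.9% and 17.8%.

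Among genes with at least 100 UMIs, COX5B stood highest with 1.15 (0.52 to 1.81). It was followed by ATP14 at 0.99 (0.29 to 1.71) and QCR7 at 0.82 (0.29 to 1.37). ATP7 at 0.54 was the last of the 4 with an interval above 0, against 25.6% of all genes, and 0 of the 28 had one below, against 11.6%. The lowest among genes with at least 100 UMIs were ATP17 at -0.49 (-1.21 to 0.20), ATP2 at -0.38 (-0.82 to 0.05) and ATP19 at -0.28 (-0.88 to 0.32). Of genes with fewer UMIs, ATP3 at -0.69 (-1.56 to 0.13) was the 1 gene at least 1.5-fold lower. COR1 had -0.51, ATP16 -0.45 and INH1 0.91 (-0.04 to 1.90).

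MPA + Guanine over Guanine compares cells with and without MPA when guanine is present, where the medium with MPA also held DMSO. The 36 genes were at 6022 CPM in MPA + Guanine and 6929 CPM in Guanine, a log2 ratio of -0.20 (-0.30 to -0.10). Without COX9, the 29 genes with UMIs in both libraries had -0.09 (-0.19 to 0.02). Of 30 genes counted, 2 were at least 1.5-fold higher and 7 lower, against 28.4% and 18.4% of 2130 genes. The median was -0.26, and 0.15 over all genes. Relative to that, 1 was higher and 9 lower, against 23.1% and 23.2%. With totals that leave out ribosomal protein genes, the summed ratio was -0.55 and 15 genes were lower.

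The intervals of COX5B at 1.17 (0.45 to 1.94) and ATP4 at 0.63 (0.21 to 1.06) lay above 0, against 25.7% of all genes, and ATP7 at 0.56 (-0.01 to 1.15) had the third highest ratio. Those of 7 genes lay below 0, against 18% of all genes: ATP2 at -1.06 (-1.49 to -0.64), COX9 at -1.02 (-1.39 to -0.65), ATP17 at -0.89 (-1.61 to -0.18), COR1 at -1.31, CYC1 at -1.21, COX7 at -0.81 and ATP18 at -0.45. Of these 7, ATP2, ATP18, COX7, COX9 and CYC1 are also among the 9 above 0 in Guanine over DMSO. The comparisons share the Guanine library, so a high level there enters both.

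**Figure D3:**
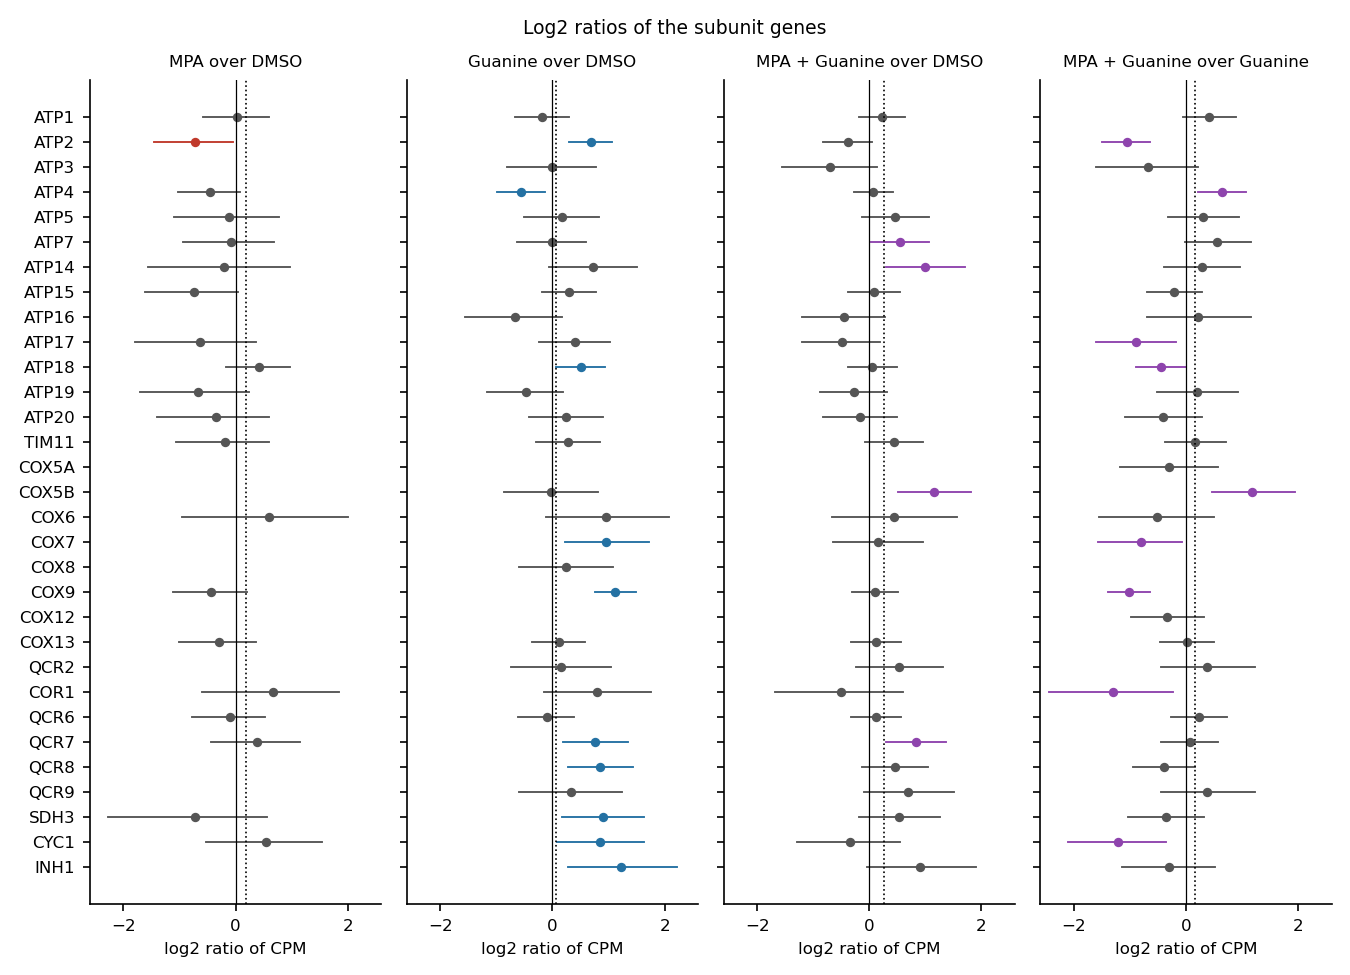
Log2 ratio of CPM (horizontal axis) of each gene with at least 50 UMIs in the 4 comparisons, with exact 95% intervals as bars; coloured points have an interval that excludes 0, the solid line is 0, the dotted line the median of all genes, and genes at 0 in either library have no point. Most points of MPA over DMSO lie left of the dotted line at 0.18, and COX9 and ATP2 lie right of 0 for Guanine over DMSO (1.12 and 0.68) and left of it for MPA + Guanine over Guanine (-1.02 and -1.06).

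In single cells, the 36 genes held a median of 0.332% of a cell's UMIs in MPA (quartiles 0.183% and 0.504%), 0.550% in MPA + Guanine (0.371% and 0.795%), 0.647% in Guanine (0.437% and 0.878%) and 0.471% in DMSO (0.337% and 0.683%). The ranges between the quartiles overlapped between all libraries. Cells without any UMI of these genes numbered 6, 8, 12 and 4. Most cells thus held a few such UMIs, a median of 4 in MPA, 6 in MPA + Guanine, 5 in Guanine and 7 in DMSO, and depth per cell differed, with medians of 1165, 957, 749.5 and 1250 UMIs. With each cell thinned to 400 UMIs, the share of cells with a UMI of any of the genes was 75.3% in MPA (64.7% to 84.0%), 86.7% in MPA + Guanine (81.9% to 90.6%), 90.7% in Guanine (86.1% to 94.1%) and 84.3% in DMSO (78.9% to 88.7%). Cells left out as shallower numbered 0, 13, 33 and 4, and the shares before thinning were 92.9%, 97.0%, 95.3% and 98.3%. The order of the thinned shares was that of the summed CPM, and the intervals of neighbours in it overlapped. For COX9, thinned shares were 12.9% in MPA, 14.5% in MPA + Guanine, 23.1% in Guanine and 13.1% in DMSO. No cell type in this culture should lack these genes, so the part of UMIs from free RNA was not measured.

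**Figure D4:**
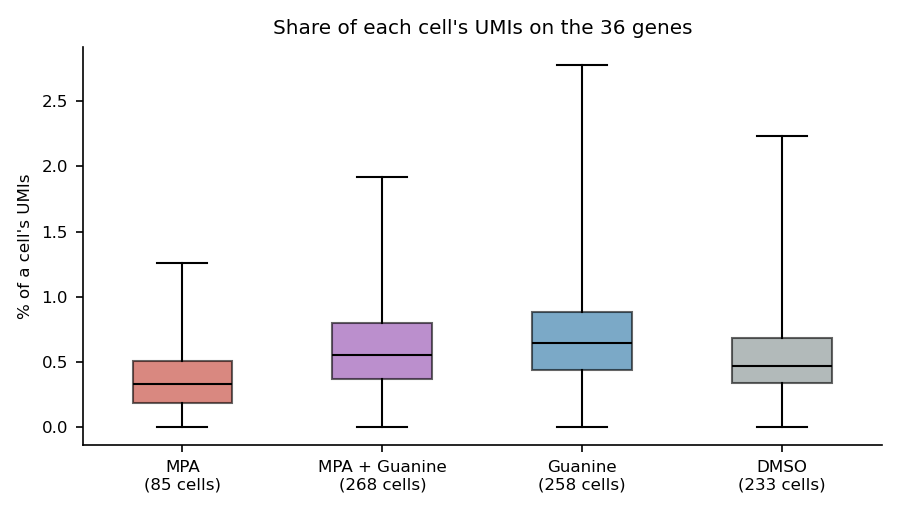
Percent of each cell's UMIs that fell on the 36 genes, by library; boxes span the quartiles with the median as a line, and whiskers the whole range. The medians are 0.332% in MPA, 0.550% in MPA + Guanine, 0.647% in Guanine and 0.471% in DMSO, with overlapping boxes.

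The authors' SC3 clustering split 3 of the libraries into subclusters. They were found from the same counts, so differences between them are a description. The subcluster DMSO.2 (56 cells) had 6654 CPM on the 36 genes and DMSO.1 (177 cells) 4771 CPM, a log2 ratio of 0.48 (0.32 to 0.64). Of 29 genes with UMIs in both and at least 50 UMIs over the 4 libraries, 27 were higher in DMSO.2, against 53.4% of 2386 genes, and the exceptions were CYC1 and QCR6. Guanine.2 (123 cells) had 7950 CPM and Guanine.1 (135 cells) 5654 CPM, a log2 ratio of 0.49 (0.34 to 0.65), with 26 of 31 genes higher in Guanine.2, against 56.8%. In both libraries the gap was wider for the oxidase than for ATP synthase or the bc1 complex. The oxidase had 1516 CPM in DMSO.2 and 869 in DMSO.1, and 2343 CPM in Guanine.2 and 1245 in Guanine.1. In the same order, ATP synthase had 3714 and 2883 CPM and 3605 and 3029 CPM, and the bc1 complex 1182 and 787 CPM and 1412 and 934 CPM. Of the oxidase sums, COX9 alone held 531 and 290 CPM and 1005 and 405 CPM, in that order. Sums without COX9 were not taken by subcluster. The difference between complexes was not tested, and the log2 ratio of Guanine.2 over Guanine.1 was as large for SDH2 and SDH3 together, 0.93 (0.05 to 1.87), as for the oxidase, 0.91 (0.60 to 1.23).

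COX9 lay at 1005 CPM in Guanine.2 and 405 CPM in Guanine.1 (log2 ratio 1.31, 0.78 to 1.87), and at 531 CPM in DMSO.2 and 290 CPM in DMSO.1 (0.87, 0.25 to 1.48). The level of Guanine.1 was near that of DMSO as a whole, 341 CPM. It stood above that of DMSO.1, with overlapping intervals (288 to 553 and 226 to 365 CPM), and Guanine.2 stood above DMSO.2. Some genes with few UMIs, picked here after their values were seen, were mostly in Guanine.2: COX8 with 22 UMIs there and 2 in Guanine.1, COX5B with 19 and 3, SDH2 with 14 and 1, and COR1 with 19 and 4. QCR2 and QCR9 each had 17 and 4. Other genes with few UMIs were split more evenly, such as COX5A with 16 and 8 and QCR10 with 13 and 8, and ATP3 had its UMIs mainly in Guanine.1, with 9 in Guanine.2 and 16 in Guanine.1 (log2 ratio -1.15, the lowest in this comparison). ATP18 (47 and 43 UMIs), CYC1 (18 and 16), ATP14 (17 and 15) and QCR8 (32 and 27) were split about as the cells' UMIs were, 120378 and 96390.

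In MPA + Guanine the 36 genes had 3726 CPM in MG.3 (25 cells), 5154 in MG.2 (77 cells) and 6528 in MG.1 (166 cells). The log2 ratio was -0.34 (-0.51 to -0.17) for MG.2 over MG.1 and -0.81 (-1.20 to -0.44) for MG.3 over MG.1. No median or share of all genes was taken for MG.3 over MG.1, and MG.3 held only 61 UMIs of these genes. The ratio of MG.3 can therefore not be called particular to them. For MG.2 over MG.1 the median of the 30 genes, -0.28, was that of all genes, -0.28, and 11 of 30 lay above 0, against 37.4%. ATP synthase had 1649 CPM in MG.3, 2584 in MG.2 and 3566 in MG.1. It took the larger part of the difference, but also held the larger part of the sum, 3566 of 6528 CPM in MG.1. MG.3 had 7 cells of 25 without any UMI of these genes, against 0 in MG.2 and 1 in MG.1, but its cells were shallower, with medians of 666, 807 and 1097.5 UMIs. With cells thinned to 400 UMIs, 70.6% of 17 cells in MG.3 had such a UMI (44.0% to 89.7%), 82.7% of 75 in MG.2 (72.2% to 90.4%) and 90.2% of 163 in MG.1 (84.5% to 94.3%), with 8, 2 and 3 cells left out as shallower. These intervals overlapped. The MPA library was left as 1 subcluster.

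**Figure D5:**
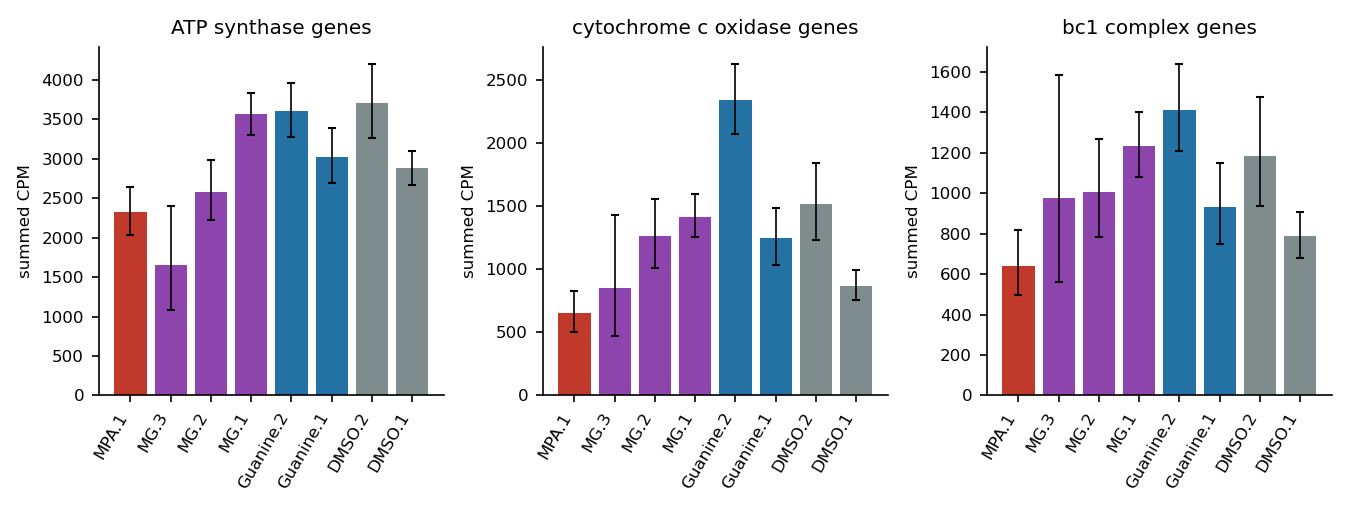
Summed level (CPM, bars from 0) of the genes of 3 complexes in the 8 subclusters, with exact 95% Poisson intervals. The oxidase bar of Guanine.2, at 2343 CPM, is the highest of its panel, and DMSO.2 lies above DMSO.1 in all 3 panels.

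Other genes of the pathway are counted by list, and those named below are mainly the ones at the ends of a list or picked after their values were seen. Of 11 genes of the TCA cycle, which feeds electrons to the chain, all had a row. IDH1 and IDH2, for the subunits of NAD-dependent isocitrate dehydrogenase, were at 0 in MPA and had 175 and 172 CPM in MPA + Guanine, 369 and 309 in Guanine, and 125 and 145 in DMSO. Their log2 ratios for Guanine over DMSO were 1.56 (0.99 to 2.15) and 1.10 (0.53 to 1.67), and they were the 2 of 9 counted that were at least 1.5-fold higher, with 0 lower, or 22.2% against 19.8% of all genes. For MPA + Guanine over Guanine they had -1.08 and -0.85. LPD1, for dihydrolipoamide dehydrogenase, had 0.95 (0.47 to 1.43) for MPA + Guanine over DMSO and 1.01 (0.47 to 1.57) over Guanine.

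Of 7 carriers and porin, PET9, the main ADP/ATP carrier, followed the order of ATP2: 136 CPM in MPA, 225 in MPA + Guanine, 378 in Guanine and 251 in DMSO. POR1, the outer membrane porin, had 370, 711, 743 and 566 CPM, and its log2 ratio for MPA over DMSO was -0.61 (-1.16 to -0.10). DIC1, the dicarboxylate carrier, had 788, 940, 632 and 1048 CPM, with -0.73 (-1.03 to -0.44) for Guanine over DMSO, the lowest of this list. PET9, POR1 and DIC1 therefore did not share an order. Of 5 genes of this list counted for MPA over DMSO, 1 was at least 1.5-fold higher and 2 lower, against 25.2% and 10.3% of all genes. The 1 higher was MIR1 at 0.70 (-0.12 to 1.48), and the 2 lower were PET9 and POR1.

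Assembly factors build the complexes without staying in them. Of 28 with a row, 10 were counted for MPA + Guanine over DMSO, of which 7 were at least 1.5-fold higher and 0 lower, against 27.5% and 10.8% of all genes, with a median of 0.67 beside 0.26 for all genes. Relative to that median of all genes, 3 of 10 were higher and 0 lower, against 14.9% and 17.8%. PET100, a factor for the oxidase, had the highest ratio among those with at least 100 UMIs, 1.18 (0.53 to 1.85), and SDH7 the lowest, 0.08 (-0.59 to 0.75). In the same comparison NDE1, an external NADH dehydrogenase, GUT2, the mitochondrial glycerol-3-phosphate dehydrogenase, and STF1 and STF2, small proteins that bind ATP synthase or its inhibitor, were each at least 1.5-fold higher, against 27.5% of all genes. They are the 4 counted of a list of 6 with a row, and CYC7 and CYB2 had too few UMIs. Of these, STF1, a second inhibitor of ATP synthase, had 126 CPM in MPA, 304 in MPA + Guanine, 134 in Guanine and 99.6 in DMSO, a log2 ratio of 1.61 for MPA + Guanine over DMSO with an interval above 0. INH1, which has the same role, had 0.91 (-0.04 to 1.90). For MPA over DMSO 8 assembly factors were counted, with 2 higher and 0 lower, or 25% higher against 25.2% of all genes.

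Of 43 mitochondrial ribosomal protein genes, which translate the subunits from the mitochondrial genome, 1 of 18 was at least 1.5-fold higher and 1 lower for MPA over DMSO, against 25.2% and 10.3% of all genes. For Guanine over DMSO these were 4 and 1 of 25, against 19.8% and 15.7%. They were 8 and 0 of 28 for MPA + Guanine over DMSO, or 28.6% higher against 27.5%, and 0 lower against 10.8%. Both were 4 of 24 for MPA + Guanine over Guanine, against 28.4% and 18.4%. Their medians of 0.14, 0.13, 0.34 and 0.28 stood beside 0.18, 0.05, 0.26 and 0.15 for all genes. The regulators had low counts. HAP4, the limiting subunit of Hap2/3/4/5, had 32 UMIs in all and HAP2 had 41, both with 0 in Guanine, where 38.9% of all genes were at 0. HAP3 had 65 in all, with 0, 21, 23 and 21 in MPA, MPA + Guanine, Guanine and DMSO. HAP5 had 28, with 0, 16, 12 and 0 in the same order. HAP1 had 126, 96.5, 69.2 and 80.3 CPM in MPA, MPA + Guanine, Guanine and DMSO. As a check of the strain, 4 genes of MATa cells had a row: MFA1 and STE2 had 1001 and 258 UMIs in all, BAR1 had 54 with 0 in Guanine, and MFA2 had 8, all in DMSO. The genes of MATalpha cells and LEU2, MET17 and URA3 have no row. HIS3, of which BY4741 carries a partial deletion, had 416.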

How the data were processed

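The 4 libraries were deposited by the authors as 1 matrix of UMI counts per gene and cell, without normalization. Per the Methods, reads were trimmed with Trimmomatic, aligned to the R64-1-1 genome with STAR and counted with UMI-tools, and cells were filtered with scater. The strand setting is not given in the sources used here, and 0 of the 40 genes overlap another annotated RefSeq gene. SC3 subcluster labels were used as deposited, and the authors' coordinates of principal components and UMAP were not used. Doublets were not called. As an alternative, the 5% of cells with the most UMIs were left out.

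The genes and lists were chosen with earlier results of these data known. Genes were matched by systematic name. UMIs were summed per library or subcluster and scaled to a total of 1000000 (CPM). Log2 ratios have no pseudocount and are not given where a gene is at 0. Counts of genes past 1.5-fold use genes with a total of 50 UMIs or more, and some in both libraries. All genes of at least 50 UMIs may be named, and per comparison the 3 highest and 3 lowest ratios among those with at least 100 UMIs were taken. Of the other lists, genes with at least 100 UMIs and the highest or lowest ratio were named, and others were added after their values were seen. For thinning, 400 UMIs were drawn from each cell (seed 1). Library totals ran to between 102788 and 311199 UMIs, which sets the width of the intervals. On data simulated as Poisson counts with the totals of MPA and DMSO, 96.6% of the 95% intervals over 2453 genes held the true ratio. The intervals assume such counts, so this checks the calculation and not the spread between cells or libraries. Tools were python 3.11.15, numpy 2.4.6, scipy 1.17.1, pandas 2.3.3, biopython 1.88, blastn 2.17.0+, and edgeR 4.0.16 in R 4.3.3 for TMM factors. The 4 genes without a row were not analysed. The protein identity of COX5A and COX5B was planned and the coding sequence was used instead.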

Additional observations from a re-analysis of the deposited data

How the results depend on the processing

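Each condition has 1 library, so no result has a replicate check, and the small MPA library, in which low genes are listed at 0, limits every comparison that uses it. No paired analysis was possible because each condition has 1 library. Sums over genes with UMIs in both or in all 4 libraries, counts relative to the median of all genes, and shares of cells as deposited or by subcluster were added after seeing the data. Of 124 alternatives, 84 stayed within the counting error or within 1.5 times the count, 39 moved further and 1 reversed. The cause of these moves was not tested beyond what each setting changes by construction.

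TMM factors moved every log2 ratio by -0.17 for MPA over DMSO, 0.01 for Guanine over DMSO, -0.18 for MPA + Guanine over DMSO and -0.19 for MPA + Guanine over Guanine. Totals without ribosomal protein genes moved them by -0.06, 0.07, -0.28 and -0.35. The summed log2 ratio of the 36 genes for MPA over DMSO was -0.61 with TMM, and -0.20 both over genes in both libraries and over genes in all 4. For MPA + Guanine over DMSO it was 0.041 with TMM and reversed to -0.061 without ribosomal protein genes. For MPA + Guanine over Guanine it was -0.39 with TMM and -0.55 without ribosomal protein genes. For Guanine over DMSO it ran between 0.34 and 0.49 over all settings.

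For MPA over DMSO, the count of genes at least 1.5-fold higher, 2, was 0 with TMM, 1 without ribosomal protein genes, 0 with the mean CPM per cell, 0 at a fold of 2 and 0 relative to the median. The count lower, 5, was 3 after removal of the deepest 5% of cells and 0 at a fold of 2. For Guanine over DMSO, the count higher, 11, was 2 at a fold of 2, and the count lower, 1, was 3 with the mean CPM per cell, 2 after that removal, 0 at a fold of 2 and 2 relative to the median. For MPA + Guanine over DMSO, the count higher, 5, was 3 without ribosomal protein genes, 1 at a fold of 2 and 3 relative to the median, and the count lower, 1, was 4 with TMM, 6 without ribosomal protein genes, 0 at a fold of 2 and 6 relative to the median. For MPA + Guanine over Guanine, the count higher, 2, was 1 with TMM, 1 without ribosomal protein genes, 1 at a fold of 2 and 1 relative to the median, and the count lower, 7, was 15 without ribosomal protein genes and 4 at a fold of 2. The share of cells with a UMI of any of the genes was 54.1% in MPA, 67.5% in MPA + Guanine, 73.5% in Guanine and 59.2% in DMSO at 200 UMIs per cell, and 92.9%, 97.0%, 95.3% and 98.3% as deposited.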
